A study of Homo sapiens with 3 samples.

Results

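The autosomal GATA factor genes GATA2, GATA3, GATA4, GATA5 and GATA6 were examined for binding of Myc-tagged Idax in HEK293T cells, an immortal line from human embryonic kidney that makes SV40 large T antigen. Peaks were taken as belonging to a gene when any base lay within 10 kb of its transcription start site (TSS), with 1 TSS per gene on build hg19. By this rule 0 of the 38 peaks of the DNA-binding mutant and 9 of the 17089 peaks of the wild-type protein lay at the 5 genes. The 3 stable lines carried Myc-IdaxDBM (the DNA-binding mutant), wild-type Myc-Idax or an empty vector, and all 3 were immunoprecipitated with an anti-c-Myc agarose gel. Both peak lists were called over the empty-vector cells. Idax was present as transfected, tagged protein, and each construct had its own stable line. Each construct had 1 peak list, although 2 replicates per condition were planned per the design text, so no value below has a replicate error and no test between the constructs was made. Read depth behind the peaks is unknown. The score of a peak is the authors' deposited value, whose scale the lists do not state. It ran from 50.43 to 94.45 in the mutant list and from 50.01 to 3100 in the wild-type list. Below, a stronger or weaker peak is one with a higher or lower score, which was not shown to measure the amount of protein bound.

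GATA factors are zinc finger proteins that bind DNA sites with the core GATA and switch on programmes of cell fate. GATA2 and GATA3 are known for their part in blood, GATA2 in stem and progenitor cells and GATA3 in T cells, and both also act in the urogenital tract. GATA4, GATA5 and GATA6 are known from heart, gut and other tissues of mesoderm and endoderm. Idax, also named CXXC4, carries a CXXC zinc finger, a fold that binds DNA with unmethylated CpG, and such CpG-rich DNA is common at the starts of developmental regulators.

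Promoter windows of these genes are shown first, because CpG is the sequence that the CXXC fold is known to bind. CpG inside the peaks was not counted, and whether it accounts for any peak was not tested. RefSeq promoter windows on GRCh38.p14, from 250 bases before to 50 bases after an annotated start, were matched by symbol. They covered 3 of the 5 genes with 9 windows: 2 of GATA2, 6 of GATA3 and 1 of GATA6. Starts are numbered in the direction of transcription. The windows of GATA6 and of GATA2 are given in full, and for GATA3 the richest and the poorest in CpG. Each is written from 5′ to 3′, and the capitals mark every CpG. These positions are on GRCh38.p14 and were not converted to hg19, so the windows are set beside the peaks by gene and not by coordinate.
GATA6 (chr18:22169339-22169638, plus strand): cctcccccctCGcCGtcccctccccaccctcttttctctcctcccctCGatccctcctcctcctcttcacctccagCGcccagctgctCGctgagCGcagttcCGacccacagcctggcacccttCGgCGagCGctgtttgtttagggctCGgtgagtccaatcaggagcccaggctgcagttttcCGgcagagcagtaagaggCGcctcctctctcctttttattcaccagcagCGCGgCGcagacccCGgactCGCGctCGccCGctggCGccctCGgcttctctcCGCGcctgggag
GATA2, start 1 (chr3:128493152-128493451, minus strand): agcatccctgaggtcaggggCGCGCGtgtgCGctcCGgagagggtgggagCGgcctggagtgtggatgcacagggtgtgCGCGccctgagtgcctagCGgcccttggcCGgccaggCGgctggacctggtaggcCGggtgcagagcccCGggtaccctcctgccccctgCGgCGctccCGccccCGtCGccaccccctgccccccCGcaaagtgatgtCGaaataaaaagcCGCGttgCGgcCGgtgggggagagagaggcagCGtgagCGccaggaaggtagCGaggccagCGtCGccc
GATA2, start 2 (chr3:128488481-128488780, minus strand): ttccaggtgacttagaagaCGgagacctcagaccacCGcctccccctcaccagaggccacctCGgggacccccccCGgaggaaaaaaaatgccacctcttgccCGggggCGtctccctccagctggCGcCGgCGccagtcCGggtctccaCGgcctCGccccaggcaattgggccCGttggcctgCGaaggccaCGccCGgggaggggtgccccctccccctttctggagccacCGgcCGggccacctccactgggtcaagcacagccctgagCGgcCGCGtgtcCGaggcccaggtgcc
GATA3, start 4 (chr10:8053391-8053690, plus strand): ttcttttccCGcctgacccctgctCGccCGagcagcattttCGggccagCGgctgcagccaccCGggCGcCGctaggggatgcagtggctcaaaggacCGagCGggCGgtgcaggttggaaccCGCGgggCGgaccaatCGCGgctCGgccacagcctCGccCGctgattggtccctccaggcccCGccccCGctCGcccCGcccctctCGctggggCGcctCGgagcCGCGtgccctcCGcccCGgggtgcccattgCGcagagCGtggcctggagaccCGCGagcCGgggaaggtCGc
GATA3, start 6 (chr10:8060207-8060506, plus strand): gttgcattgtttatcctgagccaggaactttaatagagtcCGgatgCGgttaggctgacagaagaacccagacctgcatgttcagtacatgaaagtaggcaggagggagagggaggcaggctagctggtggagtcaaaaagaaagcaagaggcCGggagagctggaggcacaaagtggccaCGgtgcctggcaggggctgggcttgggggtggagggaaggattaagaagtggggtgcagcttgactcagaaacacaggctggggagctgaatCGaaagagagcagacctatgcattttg

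The GATA6 window held 25 CpG, more than 68.0% of all 35116 windows of the table. The window of GATA2 start 1 held 29 CpG and that of start 2 held 22, more than 75.8% and 62.3% of all windows. The 6 GATA3 windows held 16, 18, 16, 36, 29 and 5 CpG from start 1 to start 6. Start 4 of GATA3 was thus the richest, above 87.3% of all windows, and start 6 the poorest, above 29.6%. Of the 9 windows, 8 held more CpG than the median window of the table, which held 14, and this was so for 48.9% of all windows. By the ratio of observed to expected CpG, 7 of the 9 lay above the median of all windows, as did 50% of the table. The 6 windows of GATA3 belong to 1 gene and are not independent. All 9 windows are of genes with a wild-type peak, so CpG content was not compared between genes with and without a peak.

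**Figure D1:**
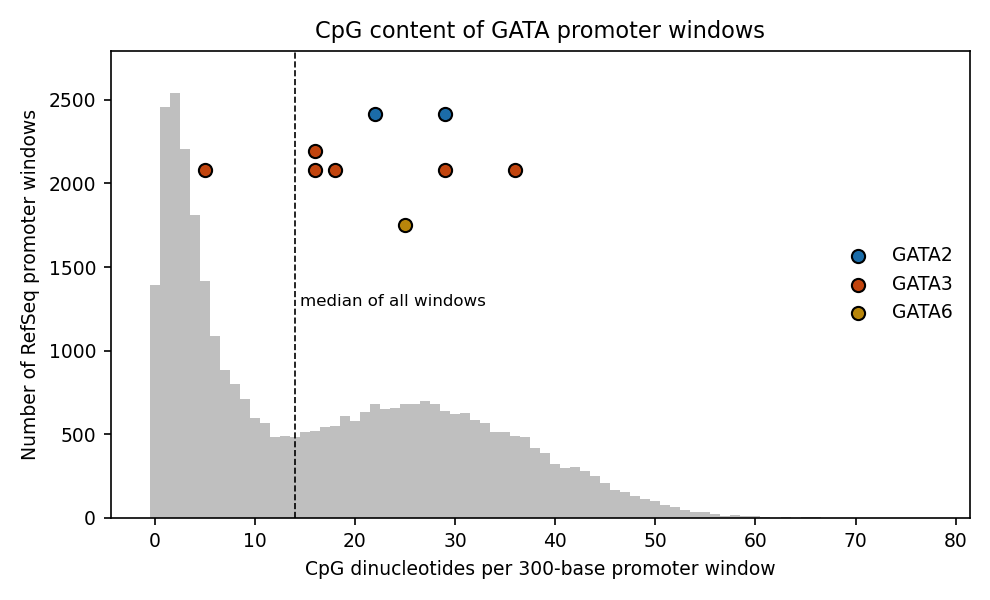
Number of RefSeq promoter windows (vertical axis, grey bars) by the number of CpG in the 300 bases (horizontal axis), with the median of 14 as a dashed line. Dots mark the windows of GATA2, GATA3 and GATA6 at their CpG number, at a height that has no meaning, and 8 of the 9 dots lie right of the median.

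Wild-type Idax had peaks at 4 of the 5 genes. GATA3 had 3 peaks, GATA2, GATA4 and GATA6 had 2 each, and GATA5 had none. The mutant list had no peak at any of them. For comparison, of 154504 fixed 20 kb stretches over all chromosomes, 0.0246% held a mutant peak. At least 1 wild-type peak was found in 9.64% of the stretches, at least 2 in 1.66% and at least 3 in 0.305%. Those stretches lay anywhere, unassembled sequence included, and were not centred on gene starts. Gene starts of hg19 as a class were not analysed here, so the counts do not set the GATA genes apart from other genes.

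**Figure D2:**
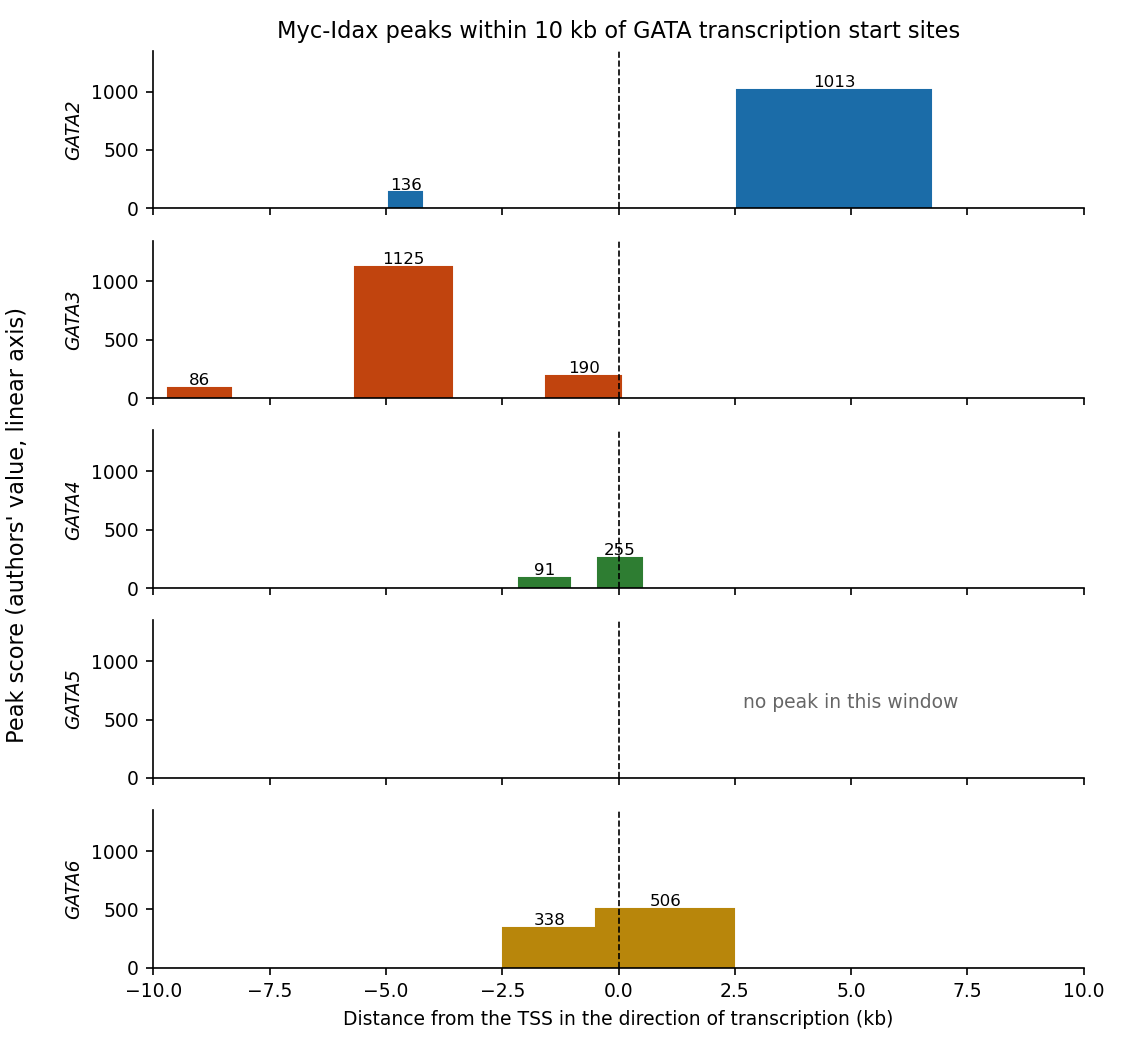
Wild-type Myc-Idax peaks within 10 kb of each TSS, with distance in the direction of transcription on the horizontal axis (kb) and the authors' peak score on the vertical axis. Each block spans its peak and carries its score, the dashed line is the TSS, and GATA5 has no block. The strongest block covers the TSS at GATA4 and GATA6, lies upstream of it at GATA3 and downstream of it at GATA2.

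The TSS itself lay inside a wild-type peak at GATA3, GATA4 and GATA6, that is at 3 of the 5 genes. Wild-type peaks covered 0.685% of all bases up to the last peak of each chromosome. That share is over bases of any kind, and the share of other gene starts inside a peak was not counted. The position of the TSS in the covering peak differed between these 3 genes. At GATA3 the peak reached from 1555 bp upstream to 62 bp downstream of the TSS, so that 96.1% of it lay upstream. At GATA4 it reached from 442 bp upstream to 494 bp downstream, nearly centred on the TSS. At GATA6 it reached from 482 bp upstream to 2488 bp downstream, with 16.2% of its width upstream.

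At GATA6, a factor needed in endoderm and heart, the covering peak spanned 2971 bp of chromosome 18 (19748934 to 19751904) and scored 506.39. A further peak at 19746937 to 19748924, 1988 bp wide with a score of 338.14, ended 492 bp upstream of the TSS. Only 9 bp separated the pair, and when peaks less than 1 kb apart were merged they formed a single region of 4968 bp. Gaps under 10 bp occurred in 67 of 17065 neighbouring pairs of the list (0.393%). The covering peak was wider than 98.6% and stronger than 83.4% of all wild-type peaks. On GRCh38.p14 the antisense lncRNA gene GATA6-AS1 starts 621 bp upstream of the GATA6 start, in the other direction, and its own promoter window also held 25 CpG. The 2 peaks at GATA6 extended 2479 bp upstream on hg19.

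At GATA4, a cardiac and endodermal factor, the covering peak spanned 937 bp of chromosome 8 (11561275 to 11562211) and scored 254.91, above 55.3% of the list. The second peak, at 11559577 to 11560683, was 1107 bp wide with a score of 90.7, and ended 1034 bp upstream of the TSS. The gap between them was 591 bp, and gaps under 1 kb occurred in 7.78% of neighbouring pairs. GATA4 thus had the lowest top score of the 4 genes with peaks.

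At GATA3, the factor of T helper cells, the peak over the TSS was not the strongest. It spanned 1618 bp of chromosome 10 (8095112 to 8096729) and scored 189.59, below the list median of 223. The strongest peak of all 5 genes lay farther upstream, at 8090990 to 8093094, from 5677 to 3573 bp before the TSS. It was 2105 bp wide, and its score of 1124.95 ranked 263 among the 17089 wild-type peaks. The third, at 8086972 to 8088328, was 1357 bp wide with a score of 86.43 and ended 8339 bp upstream. All 3 peaks lay upstream of the TSS or reached just past it. On GRCh38.p14 the table gives GATA3 starts 4521, 5903, 8308, 9355 and 15124 bp downstream of start 1. It gives 3 starts of the antisense lncRNA gene GATA3-AS1, from 157 to 219 bp upstream of GATA3 start 4. Which of these starts is the hg19 TSS used here is not recorded in the tables, so no peak was assigned to a single start. The windows of GATA3-AS1 held 33 to 37 CpG and overlap that of GATA3 start 4.

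At GATA2, the factor of blood stem and progenitor cells, the TSS lay between 2 peaks. GATA2 is transcribed from the minus strand. The stronger peak spanned 128205316 to 128209484 of chromosome 3, from 2546 to 6714 bp downstream of the TSS. It was 4169 bp wide, which ranked 49 among the 17089 peaks, and its score of 1013.45 ranked 408. The other, at 128216254 to 128216956, lay 4224 to 4926 bp upstream, was 703 bp wide and scored 136. No peak lay within 1 kb of this TSS. The GATA2 windows printed above belong to 2 different starts and held 29 and 22 CpG. On GRCh38.p14 GATA2 start 2 is 4671 bp downstream of start 1, and the lncRNA gene GATA2-AS1 starts 673 bp upstream of start 2 in the other direction. The GATA2-AS1 window held 24 CpG. Whether start 1 is the hg19 TSS used here was not checked, so the stronger peak was not assigned to start 2. If it is, and the spacing of 4671 bp holds on hg19, start 2 lies inside the stronger peak. If start 2 is the TSS instead, start 1 lies inside the upstream peak. The lack of a peak within 1 kb thus holds for the TSS used and not for both starts.

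GATA5, also known from heart and endoderm, had no peak of either list within 10 kb, nor within 50 kb. Its nearest wild-type peak lay 67951 bp downstream, was 917 bp wide and scored 221.46, and the nearest upstream was 222036 bp away. The TSS, on chromosome 20 at 61051026, thus lay in a stretch of 289986 bp without a wild-type peak. This chromosome had the highest density of wild-type peaks among those of the 5 genes, with 6.91 peaks per Mb, and 12.3% of its 20 kb stretches held a peak. The same share was 10.9% on chromosome 10 (GATA3), 8.48% on chromosome 3 (GATA2), 6.85% on chromosome 8 (GATA4) and 4.94% on chromosome 18 (GATA6). GATA5 had no peak on the most occupied of these chromosomes, and GATA6 had 2 on the least occupied. Whether the density of peaks on a chromosome bears on the peaks at a gene was not tested. A peak below the authors' threshold would not be in the list, and the number of reads at GATA5 is unknown. Promoter windows of GATA4 and GATA5 were not used here.

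The peaks covered much of the 20 kb windows at 3 genes. They took up 25.4% of the window of GATA3, 24.8% of that of GATA6 and 24.4% of that of GATA2. At GATA4 they took up 10.2%, and the window of GATA5 held none. At least 20% was covered in 0.164% of all 20 kb stretches, and at least 10% in 1.68%. A peak of score above 1000, as at GATA2 and GATA3, was found in 0.305% of the stretches. The stretches lay anywhere and were not centred on gene starts, so these shares are not those of other gene starts. The 9 peaks together covered 16955 bp.

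The scores of the 9 peaks ran from 86.43 to 1124.95 with a median of 254.91, against a median of 223 over the 17089 wild-type peaks, and 5 of the 9 lay above the list median, as did 50% of the list. Their widths ran from 703 to 4169 bp with a median of 1618 bp, against 1116 bp over the list, and 6 of the 9 were wider than the list median, as were 50% of the list. The highest and the lowest score were both at GATA3. The GATA3 peak of score 86.43 was 1357 bp wide, and the GATA4 peak of score 254.91 was 937 bp wide. Set against the other wild-type peaks within 10% of its own score, a peak was wider than their median in 7 of the 9 cases, and this was so for 50.2% of all wild-type peaks. The exceptions were the upstream peak of GATA2 and the peak over the GATA4 TSS. The widest for its score was the peak over the GATA6 TSS, wider than 98.1% of 1178 peaks of like score, which had a median width of 1524 bp. The stronger GATA2 peak was wider than 97.3% of 301 peaks of like score, with a median of 1910 bp. The peak of lowest score at GATA3 was wider than 97.2% of 1037 peaks of like score, with a median of 764 bp. This comparison was chosen after the values were seen and is a description of the 9 peaks.

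**Figure D3:**
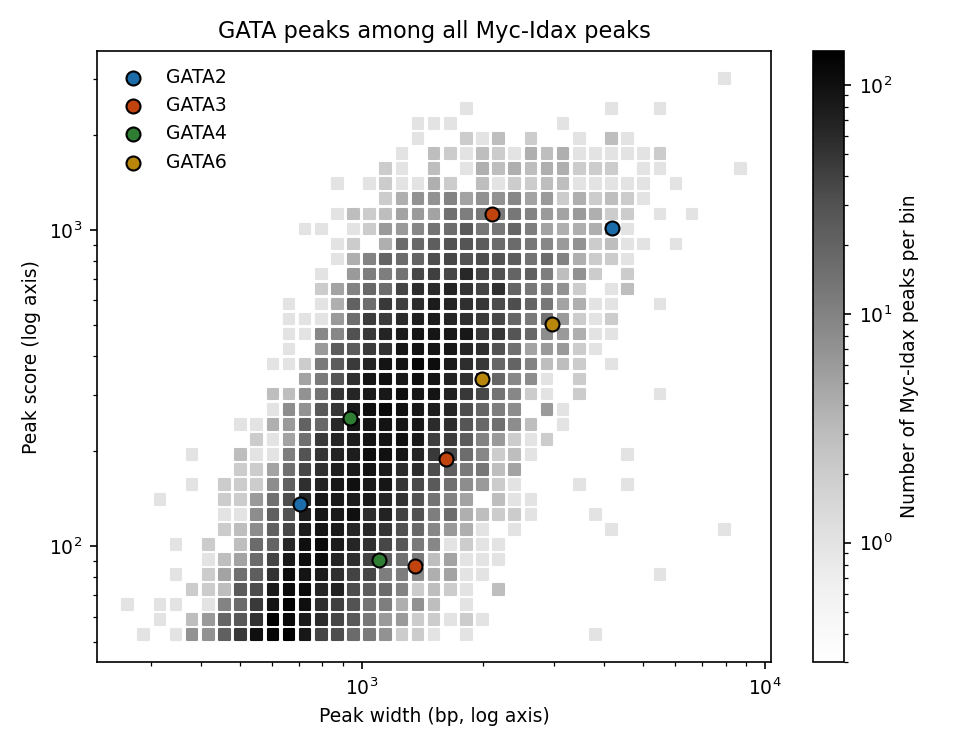
Peak score against peak width, both on log axes, for all 17089 wild-type Myc-Idax peaks as grey bins (darker bins hold more peaks) and for the 9 peaks at GATA2, GATA3, GATA4 and GATA6 as coloured points. The GATA2 point at 4169 bp and the GATA6 point at 2971 bp lie right of most peaks of like score, wider than 97.3% and 98.1% of them.

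Widening the window added few wild-type peaks at first, with 9 within 20 kb, 10 within 50 kb and 15 within 100 kb of the 5 TSS. The weakest of the 9 was also the one nearest to the limit of 10 kb, and the next peak outside the limit lay 31887 bp downstream of the GATA4 TSS with a score of 129.59. At GATA6 the next peaks lay 427298 bp upstream (score 476.85) and 178996 bp downstream (score 152.06). At GATA3 they lay 235594 bp upstream (score 528.83) and 217030 bp downstream (score 160.49). The gaps on either side of both groups of peaks exceeded 150 kb, as did 24.2% of all gaps between neighbouring wild-type peaks, whose median was 52569 bp. At GATA2 the next peaks were 114900 bp upstream (score 83.66) and 66124 bp downstream (score 139.41), and at GATA4 the next upstream peak was 139128 bp away (score 212.34). Within 1000 kb there were 34 wild-type peaks around GATA2, 29 around GATA5, 18 around GATA4, 14 around GATA3 and 13 around GATA6.

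**Figure D4:**
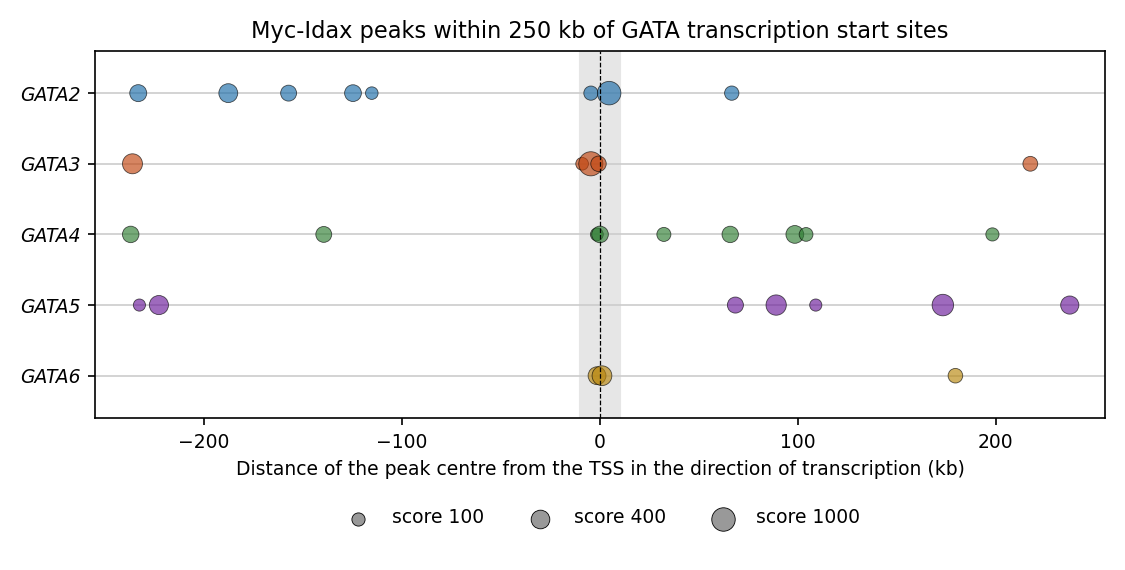
Wild-type Myc-Idax peaks within 250 kb of each TSS, each a circle at the distance of its centre from the TSS in the direction of transcription (kb), larger for a higher score. The grey band marks the 10 kb on either side. At GATA3 and GATA6 the peaks in the band have no neighbour within 150 kb, and at GATA5 the band is empty.

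The mutant list was sparse around all 5 genes. Against 24 chromosomes with a wild-type peak, it had peaks on 14. None of its peaks was on chromosomes 3, 8 or 20, which carry GATA2, GATA4 and GATA5. Its only peak on chromosome 18 lay 2622412 bp downstream of the GATA6 TSS with a score of 57.01. Its only peak on chromosome 10 lay 126682133 bp downstream of the GATA3 TSS with a score of 54.62. All 9 wild-type peaks at these genes were thus without a mutant counterpart, in a list of 38 mutant peaks against 17089 wild-type peaks. A list of 38 peaks leaves most wild-type peaks anywhere without a counterpart, so this absence does not set the GATA genes apart. The share of all wild-type peaks with a mutant counterpart was not counted. The part of sequencing depth, of the amount of tagged protein and of the yield of the immunoprecipitation in the difference between the lists was not tested.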

How the data were processed

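Chromatin immunoprecipitation with sequencing was done with an anti-c-Myc gel on HEK293T lines with Myc-IdaxDBM, Myc-Idax or empty vector. The authors' deposited peak lists give chromosome, start, end, name and a score per peak. Bowtie 0.12.7, MACS 1.4.1 and hg19 are named, without their roles, per the submitters' processing notes, and no source used here says how the replicates were combined. Starts were converted to 1-based positions. A peak counted when its nearest edge lay within 10 kb of the TSS that defined each member. Offsets follow the strand, taken for GATA2, GATA3 and GATA6 from the RefSeq table and for GATA4 and GATA5 from general knowledge. All peaks of the 5 genes are named. The members and lists were chosen with earlier results of these data known. With 1 list per condition no test was made. Fixed 20 kb stretches from base 1 to the last wild-type peak of each chromosome gave the background. RefSeq (GRCh38.p14) gave promoter windows and neighbouring genes, and no position was converted. Peak counting was tested on simulated peaks. The alternatives were windows of 5 and 20 kb, distance from peak centres, a minimum score of 100 and merging within 1 kb. Python 3.11.15, numpy 2.4.6, pandas 2.3.3 and matplotlib 3.10.9 were used.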

Additional observations from a re-analysis of the deposited data

How the results depend on the processing

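No paired analysis was possible because the 2 lists carry no replicate numbers, and as each construct has 1 list no replicate could be left out. Of 43 alternatives, 40 stayed within 1.5 times the value they bear on, a count or a number of bases. Those for GATA5 and for the mutant list were 0 in every setting. Only the 20 kb window could have added a peak there. A smaller window, peak centres, a minimum score or merging could not. The totals repeat the single genes, so the 40 are not independent. With a minimum score of 100, GATA4 had 1 peak in place of 2, and with peaks under 1 kb apart merged, GATA4 and GATA6 had 1 each in place of 2. GATA3 had 2 peaks in place of 3 with a minimum score of 100, and also within 5 kb. That change is just at the limit of 1.5 times and so is among the 40. The total was 8 within 5 kb, 7 with score 100 or more and 7 after merging, against 9. A minimum score of 100 leaves no mutant peak, so that setting has no value for the mutant. Windows added after seeing the data gave 4 wild-type peaks within 1 kb, 15 within 100 kb, 60 within 500 kb and 108 within 1000 kb. Depth is unknown.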
